A study of Mus musculus with 9 samples.

Results

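Endoplasmic reticulum (ER) chaperones and the genes of ER-associated degradation (ERAD) were followed in mouse liver 2 h after an intraperitoneal injection. The group holds 33 genes, chosen by symbol from known roles, out of 21936 genes in the table of read counts. All 33 were found by symbol and all 33 passed the filter on low counts that left 12557 genes for testing. Secreted and membrane proteins fold in the ER with the help of chaperones, lectins and disulfide isomerases. Proteins that fail to fold are recognised by lectins and mannosidases, drawn back through the ER membrane and ubiquitinated for degradation. Hepatocytes secrete most plasma proteins, and when unfolded protein builds up the sensors ATF6, IRE1 and PERK signal to slow translation and to raise chaperone and ERAD transcripts, a program known as the unfolded protein response.

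The mice carried the wild-type genotype and received NaCl, retrorsine at 25 mg/kg or retrorsine at 50 mg/kg, with 3 libraries in each group. Retrorsine is a pyrrolizidine alkaloid, a plant toxin that becomes reactive once cytochrome P450 enzymes of the liver oxidise it. The sources used here give no strain, sex or age. The libraries of a group are called repetitions in the labels, with no word on separate animals, so the p-values measure only the spread between these samples. Both dose comparisons used the same NaCl libraries and are therefore not independent of each other.

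Total counts ranged from 15241261 to 18691736 reads per library. The hepatocyte markers summed to between 123500 and 162700 CPM (read counts scaled to library size by TMM) in the 9 libraries. Transcripts of pancreatic acinar cells, which are rich in ER, differed by library: all 12 acinar markers were in the table, and together they made up 0.519%, 0.0889% and 0.0246% of counts with NaCl, between 0.00115% and 0.00197% at 25 mg/kg, and 0.00111%, 0.0322% and 0.00245% at 50 mg/kg. Their summed level ran from 230.9 to 5596 CPM with NaCl, from 11.7 to 19.63 CPM at 25 mg/kg and from 11.18 to 325.9 CPM at 50 mg/kg, and Amy2a5 and Clps had no reads in any library at 25 mg/kg. NaCl replicate 1, with the most acinar reads, was the highest NaCl library for 25 of the 33 ER genes, while NaCl replicate 2, second in acinar reads, was the lowest for 23. At 50 mg/kg replicate 1, with the fewest acinar reads of that group, was the highest library for 23 ER genes, and replicate 2, with the most, for 8. The order of libraries was not counted over all genes tested, so these counts are not a result about the ER genes. The part of acinar transcripts in the ER results was not tested, and values without NaCl replicate 1 are given where a call was lost. Plasma cell and B cell markers, the other marker list of a secretory cell type, summed to 1.008 to 2.109 CPM with NaCl, 3.358 to 6.847 CPM at 25 mg/kg and 2.43 to 7.992 CPM at 50 mg/kg, and Tnfrsf17 had no reads in the 9 libraries. In bulk tissue, fewer cells of a type and less RNA per cell cannot be told apart.

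The unfolded protein response acts on promoters through short elements, shown here because some genes of the group share them. The ER stress response element (ERSE), bound by ATF6 together with NF-Y, is CCAAT and CCACG separated by 9 bases. A second form, ERSE-II, is ATTGG and CCACG separated by 1 base. Promoter sequence came from RefSeq (build GRCm38.p6) and was searched on both strands over the 250 bases before each gene's start. Of the 33 genes, 27 were in the promoter table. The ERSE was present in 9 of these 27 (33.3%), against 35 of 27025 genes in the table (0.13%), and ERSE-II in Herpud1, against 10 of 27025 genes (0.037%). The genes with an ERSE were Calr, Canx, Creld2, Derl3, Dnajc3, Hsp90b1 with 2 copies, Hspa5, Pdia6 and Syvn1. The windows below run 5′ to 3′ on the strand named, with 5 bases on each side, and the capitals mark CCAAT, or ATTGG in ERSE-II, and CCACG.
Hspa5, chr2:34772020-34772048, plus strand: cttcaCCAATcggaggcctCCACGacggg
Hsp90b1, chr10:86705633-86705661, minus strand: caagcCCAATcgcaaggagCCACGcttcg
Hsp90b1, chr10:86705528-86705556, plus strand: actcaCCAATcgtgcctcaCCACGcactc
Calr, chr8:84847070-84847098, plus strand: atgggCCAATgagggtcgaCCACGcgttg
Canx, chr11:50325795-50325823, minus strand: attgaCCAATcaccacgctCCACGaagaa
Dnajc3, chr14:118937822-118937850, plus strand: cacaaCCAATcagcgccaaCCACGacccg
Pdia6, chr12:17266486-17266514, plus strand: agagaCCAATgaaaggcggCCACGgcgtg
Syvn1, chr19:6046527-6046555, plus strand: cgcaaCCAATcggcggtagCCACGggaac
Herpud1, chr8:94386372-94386392, plus strand: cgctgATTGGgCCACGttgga
The spacer differed in every ERSE window printed, while CCAAT and CCACG were the same by construction of the search. The element ran along the gene's own strand in Hspa5, Canx, Dnajc3, Pdia6 and Syvn1, and on the opposite strand in Calr and in Creld2 and Derl3, whose windows are not printed. Hsp90b1 held a copy on each strand. The element nearest to a start was that of Syvn1, 26 to 44 bases before it, and in Hspa5 it lay 47 to 65 bases before the RefSeq start, inside the span that the deposited table gives for that gene. The XBP1 and ATF6 element TGACGTGG was in 0 of the 27 promoters and in 163 of 27025 (0.603%). The cAMP response element TGACGTCA was likewise in 0 of the 27, and in 478 of 27025 (1.77%). A match describes these letters in this window and does not show that a factor binds there.

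Per length, the group spanned more than 3 orders of magnitude in the NaCl livers. P4hb, the archetypal protein disulfide isomerase, stood highest at 545 ± 13.7 CPM per kb (mean ± SD, n = 3). The lectin chaperone Calr at 275 ± 50.5 and Hspa5, which encodes the Hsp70 chaperone BiP, at 262 ± 25.6 CPM per kb came next and differed by less than their SD. Herpud1 (155 ± 15.6 CPM per kb) and Xbp1 (117 ± 30.7 CPM per kb) followed. Among the sensors, Ern1 stood at 11.1 ± 0.961, Atf6 at 8.66 ± 1.08 and Eif2ak3 at 3.58 ± 0.108 CPM per kb. Near the foot of the order, Edem3 (4.71 ± 0.514 CPM per kb), Derl2 (4.14 ± 0.66 CPM per kb), Erlec1 (3.94 ± 0.431 CPM per kb) and Eif2ak3 each differed from the next by less than the larger of their SDs, and Derl3 stood apart at 0.332 ± 0.196 CPM per kb with 4 to 16 reads per library.

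**Figure D1:**
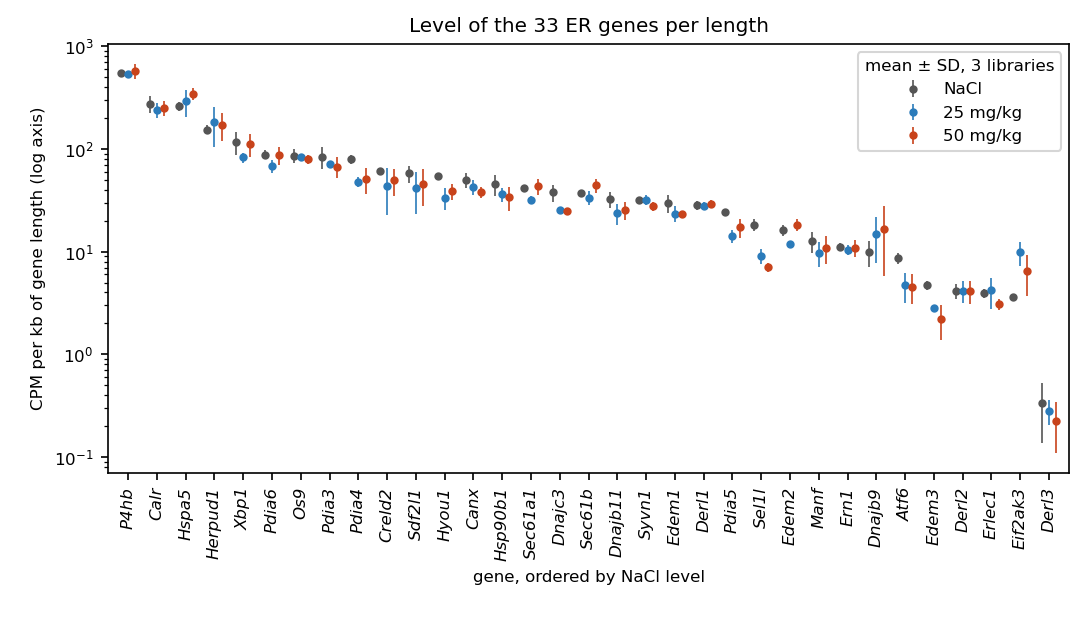
Level of the 33 ER genes in CPM per kb of gene length (log axis), ordered by the NaCl mean. Points are group means of 3 libraries and bars are SD. P4hb was highest and Derl3 lowest, and Eif2ak3, near the right end, stood at 9.85 CPM per kb at 25 mg/kg, against 3.58 with NaCl.

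The first comparison asked how the group stood 2 h after 25 mg/kg. Sel1l, the adaptor of the ERAD ubiquitin ligase, fell 2.02-fold, and the isomerases Pdia4 and Pdia5 and the BiP partners Hyou1 and Dnajc3 fell 1.49-fold to 1.72-fold. Eif2ak3, the gene of the sensor kinase PERK, rose 2.75-fold. In all, 1 of the 33 genes rose and 5 fell (18.2%), against a background of 13.5% called among all genes tested, 5.9% higher and 7.56% lower. The share called lay near that background and is not a result about the group. The groups did not overlap, with all treated libraries lower, for 10 genes (background 18.8%) and, with all higher, for 1 (background 17.7%). The median log2 fold change of the 33 was -0.32, against 0.01 over all genes tested, and 26 of the 33 values were negative, against 6174 of 12557. The 33 genes share libraries, so their values are not independent. Per library, the median of the 33 was taken in log2 CPM about each gene's mean over the 9 libraries. It was 0.37, 0.002 and 0.12 in NaCl replicates 1, 2 and 3, and -0.21, -0.14 and -0.02 at 25 mg/kg. The unadjusted p was under 0.05 for 10 genes, 9 of them lower, against 28.6% of all genes. Of the 6 calls, 1 was left on omitting NaCl replicate 1 or 3, 2 on omitting NaCl replicate 2 or replicate 3 at 25 mg/kg, and 3 on omitting replicate 1 or 2 at 25 mg/kg or replicate 2 at 50 mg/kg. Over all genes, 1690 calls became 896 without NaCl replicate 1 and 751 without NaCl replicate 3.

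After 50 mg/kg, Sel1l fell 2.6-fold, Edem3, an ERAD mannosidase gene, fell 2.14-fold and Dnajc3 fell 1.52-fold. No gene of the group rose past the threshold. The share called, 3 of 33 (9.09%), was below the background of 15.1%, which split into 7.09% higher and 8.01% lower. Over all genes 890 were called higher and 1006 lower, a split that moved to 656 and 1194 when libraries were scaled by their totals alone. The treated libraries all lay below the NaCl libraries for 8 ER genes (background 18.5%) and all above for 2 (background 16.6%). The median log2 fold change was -0.21, against 0.000508 over all genes tested, with 24 of 33 values negative, against 6269 of 12557. Per library, the median of the 33 about each gene's mean was 0.17, -0.09 and -0.30 in replicates 1, 2 and 3. Replicate 1 thus lay above NaCl replicates 2 and 3, at 0.002 and 0.12, while NaCl replicate 1 stood at 0.37. The unadjusted p was under 0.05 for 8 genes, 7 of them lower, against 31.2% of all genes. Without NaCl replicate 1, and without NaCl replicate 3, 1 gene was called in place of 3. Over all genes, 1092 and 700 were called in place of 1896.

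**Figure D2:**
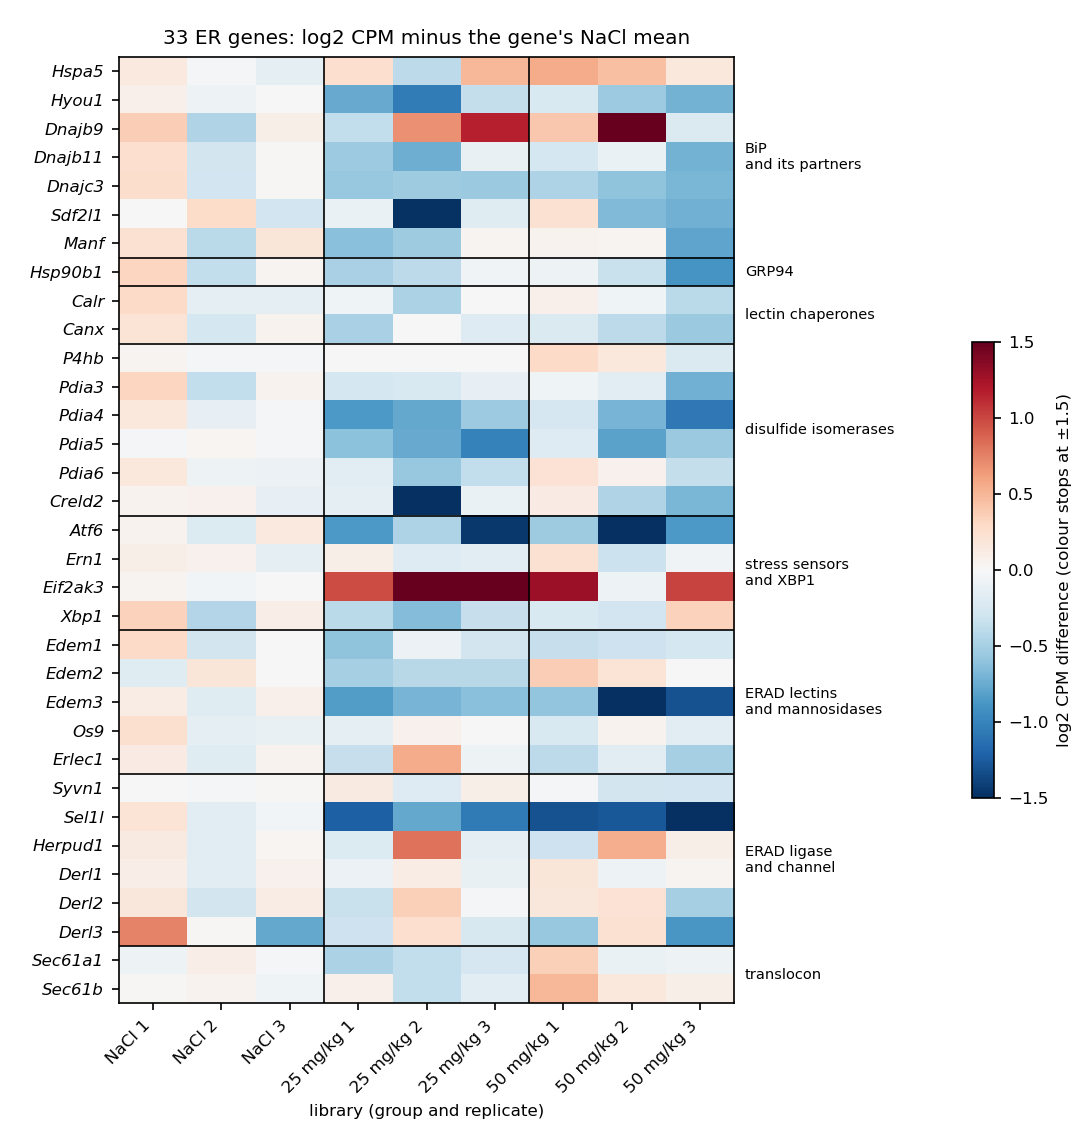
Log2 CPM of the 33 ER genes in each of the 9 libraries minus the gene's mean over the NaCl libraries, in blocks by role (blue lower, red higher, colour stops at ±1.5). Sel1l, Edem3 and Atf6 were lower than the NaCl mean in all 6 treated libraries. So were Hyou1, Dnajb11, Dnajc3, Hsp90b1, Canx, Pdia3, Pdia4, Pdia5 and Edem1. Eif2ak3 was higher in 5 of 6.

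**Figure D3:**
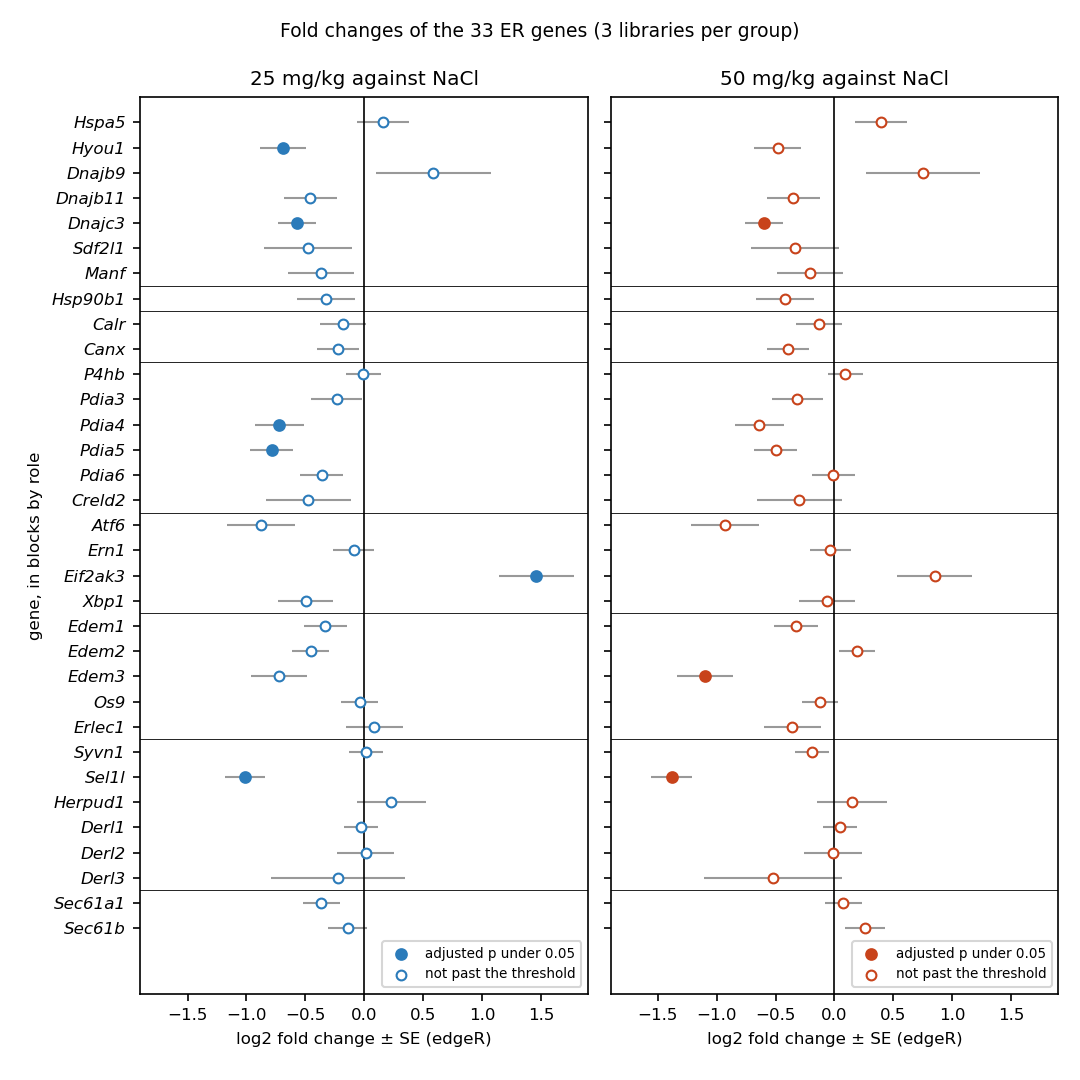
Log2 fold change ± SE of each gene at 25 mg/kg (left) and 50 mg/kg (right) against NaCl from edgeR, in the same order. Filled points passed an adjusted p of 0.05: 1 higher and 5 lower at 25 mg/kg, and 3 lower at 50 mg/kg.

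Among the sensors, Eif2ak3 was the gene that moved up. Its product PERK phosphorylates eIF2α and so slows translation. Eif2ak3 (ENSMUSG00000031668, chr6:70844515-70905245, plus strand, GRCm38) stood at 22.2, 21 and 21.4 CPM with NaCl, at 42.7, 62.4 and 72.8 CPM at 25 mg/kg and at 52.5, 20.5 and 43.8 CPM at 50 mg/kg, in replicates 1, 2 and 3. All 25 mg/kg libraries lay above the tight NaCl range, while 50 mg/kg replicate 2 lay below it and the other two of that group above. The log2 fold change was 1.46 (SE 0.32, adjusted p = 0.0176) at 25 mg/kg and 0.85 (SE 0.32, adjusted p = 0.0997) at 50 mg/kg. Leaving out any NaCl library, or replicate 3 at 25 mg/kg, ended the call at that dose (adjusted p from 0.0545 to 0.0711), with 1.49 (adjusted p = 0.0545) when it was NaCl replicate 1. Without 50 mg/kg replicate 2 the 50 mg/kg value was 1.16 (adjusted p = 0.0202), and DESeq2 over all libraries gave 0.87 (adjusted p = 0.0496). An unconfirmed transcript model on the opposite strand, Gm43292, shares 8.05% of the exon bases of Eif2ak3, and the sources used here give no strand setting for the counting.

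Atf6 encodes a membrane-bound transcription factor that is cut free in the Golgi apparatus and then drives chaperone genes. Atf6 (ENSMUSG00000026663, chr1:170704674-170867771, minus strand) stood at 82.6, 68.9 and 88.3 CPM with NaCl, at 43.9, 57.6 and 29.2 CPM at 25 mg/kg and at 54.7, 27.5 and 43.7 CPM at 50 mg/kg. Every treated library lay below every NaCl library at both doses. The log2 fold changes of -0.88 (SE 0.29, adjusted p = 0.0774) and -0.93 (SE 0.29, adjusted p = 0.0599) did not pass the threshold, and DESeq2 gave adjusted p = 0.0293 and adjusted p = 0.0204 for the same comparisons.

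Ern1 encodes IRE1α, the kinase and ribonuclease that splices Xbp1 mRNA. Its NaCl libraries read 96.4, 94.6 and 82 CPM, those at 25 mg/kg 96.7, 79.5 and 80.4 CPM and those at 50 mg/kg 106, 72.3 and 87.8 CPM, so the groups overlapped and both fold changes were smaller than their SE. Xbp1, the transcription factor gene downstream of IRE1α, stood at 470.1, 273 and 399 CPM with NaCl, 280.0, 236 and 292 CPM at 25 mg/kg and 317, 304 and 472 CPM at 50 mg/kg. NaCl replicates 1 and 3 and 50 mg/kg replicate 3 were the high libraries, and the lowest NaCl library lay within the 25 mg/kg range. Its fold change was -0.50 (SE 0.24, adjusted p = 0.198) on the log2 scale at 25 mg/kg and smaller than its SE at 50 mg/kg. Gene counts do not separate spliced from unspliced Xbp1.

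BiP itself did not pass the threshold, while some of its partners fell. Hspa5 (ENSMUSG00000026864, chr2:34771970-34777547, plus strand) stood at 1224, 1095 and 1009 CPM with NaCl, 1319, 840.4 and 1560 CPM at 25 mg/kg and 1627, 1508 and 1236 CPM at 50 mg/kg. At 25 mg/kg the libraries spread to both sides of the NaCl range, and at 50 mg/kg all of them lay above it, replicate 3 by the least. At 50 mg/kg the log2 fold change was 0.39 (SE 0.22, adjusted p = 0.258), and at 25 mg/kg it was smaller than its SE.

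Hyou1 encodes GRP170, a large Hsp70-like exchange factor for BiP. Hyou1 (ENSMUSG00000032115, chr9:44379490-44392369, plus strand) stood at 414, 371 and 392 CPM with NaCl, 233, 189.5 and 306 CPM at 25 mg/kg and 334, 268 and 240.0 CPM at 50 mg/kg. All treated libraries lay below the NaCl range. The log2 change of -0.69 (SE 0.20, adjusted p = 0.0461) passed the threshold at 25 mg/kg, and that of -0.48 (SE 0.20, adjusted p = 0.126) at 50 mg/kg did not. Leaving out any NaCl library, 25 mg/kg replicate 1 or 2, or 50 mg/kg replicate 2 ended the call (adjusted p from 0.0577 to 0.135), and at a log2 fold change of -0.65 without NaCl replicate 1 the adjusted p was 0.121.

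Dnajc3 encodes a J-domain partner of BiP that is also known to inhibit PERK. Dnajc3 (ENSMUSG00000022136, chr14:118937976-118981697, plus strand) stood at 231, 157 and 194 CPM with NaCl, 129, 132 and 131 CPM at 25 mg/kg and 139, 126 and 119 CPM at 50 mg/kg. The NaCl libraries were spread out and the treated ones lay close together below the lowest of them. Its log2 fold changes were -0.57 (SE 0.16, adjusted p = 0.0442) at 25 mg/kg and -0.60 (SE 0.16, adjusted p = 0.0343) at 50 mg/kg. The 25 mg/kg call ended on leaving out NaCl replicate 1 or 3, any 25 mg/kg library, or 50 mg/kg replicate 2 or 3 (adjusted p from 0.0502 to 0.148). At 50 mg/kg it ended on leaving out NaCl replicate 1 or 3, 25 mg/kg replicate 1 or 3, or any 50 mg/kg library (adjusted p from 0.0522 to 0.109). Without NaCl replicate 1, the library rich in acinar reads, the values were -0.43 (adjusted p = 0.148) and -0.46 (adjusted p = 0.109).

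**Figure D4:**
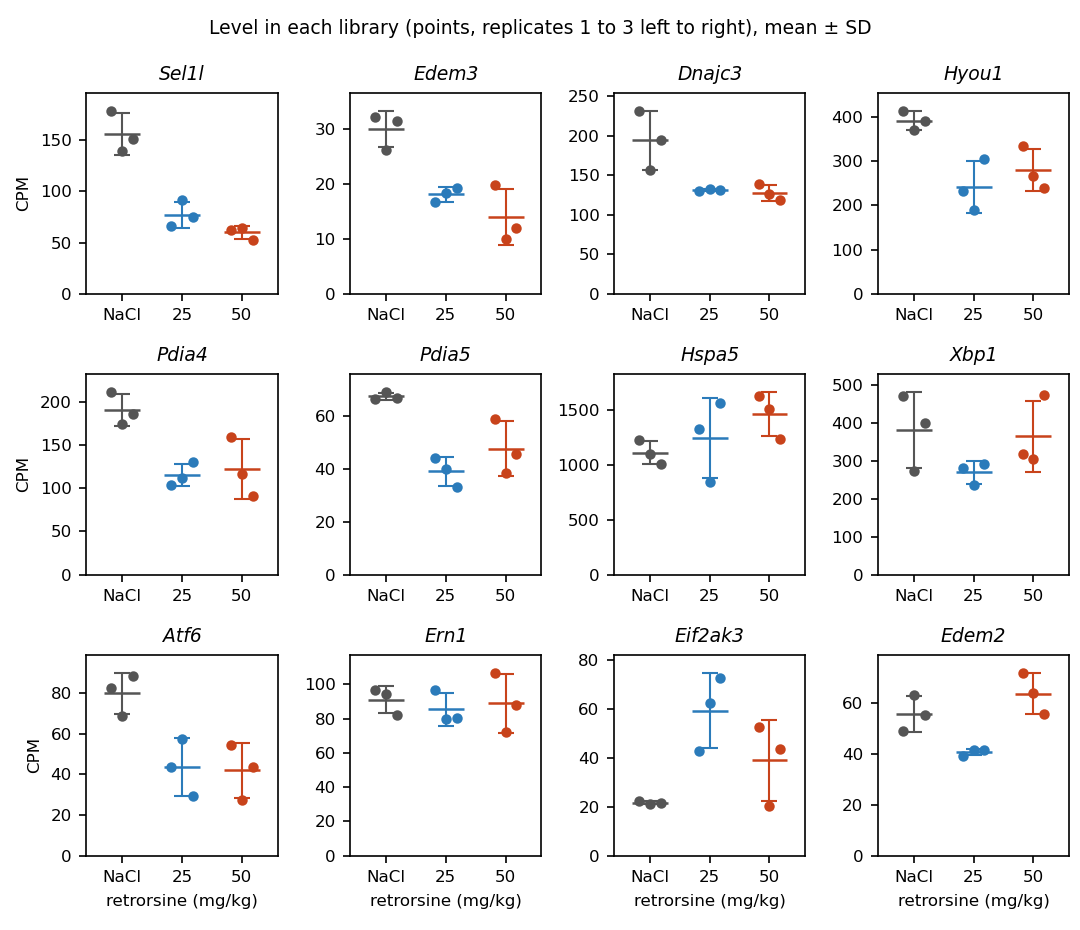
Level in CPM of 12 ER genes in each library (points, replicates 1 to 3 from left to right), with group mean and SD of 3 libraries. The treated points of Sel1l, Dnajc3, Hyou1, Pdia4, Pdia5, Edem3 and Atf6 lie below all NaCl points, those of Eif2ak3 lie above them at 25 mg/kg, and those of Hspa5 lie above them at 50 mg/kg.

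The other BiP partners did not pass the threshold at either dose. Dnajb9, a J-domain cofactor that is among the strongest targets of IRE1 and XBP1 signalling, spread from 17.9 to 31.7 CPM with NaCl, from 18.9 to 55 CPM at 25 mg/kg and from 21.1 to 73.9 CPM at 50 mg/kg. Its log2 fold changes of 0.59 (SE 0.48, adjusted p = 0.467) and 0.75 (SE 0.49, adjusted p = 0.322) had the largest SE among the BiP partners. Dnajb11, another J-domain partner, gave log2 values of -0.46 (SE 0.23, adjusted p = 0.214) and -0.35 (SE 0.22, adjusted p = 0.322). Sdf2l1, which binds DNAJB11, and Manf, an ER protein that binds BiP, gave log2 values of -0.48 and -0.37 at 25 mg/kg (adjusted p = 0.434 and adjusted p = 0.426) and values smaller than their SE at 50 mg/kg. Sdf2l1 in 25 mg/kg replicate 2 stood at 22.6 CPM, against 59.2 and 55.9 CPM in the other libraries of that dose. Other annotated genes share 9.25% of the exon bases of Manf, Dcaf1 and Rbm15b among them.

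Hsp90b1 and the lectin chaperones also stayed short of the threshold. Hsp90b1, the gene of the ER Hsp90 GRP94, averaged 182 ± 42.5 CPM with NaCl, 146 ± 23.4 CPM at 25 mg/kg and 136 ± 37.2 CPM at 50 mg/kg, with log2 fold changes of -0.32 (SE 0.24, adjusted p = 0.42) and -0.42 (SE 0.24, adjusted p = 0.272). Other annotated genes share 15.7% of its exon bases. Calr, the soluble lectin chaperone that binds monoglucosylated glycoproteins, averaged 792 ± 146 CPM with NaCl, 698 ± 118 CPM at 25 mg/kg and 724 ± 121 CPM at 50 mg/kg, with fold changes smaller than their SE at both doses. Its membrane-bound counterpart Canx gave log2 values of -0.22 (SE 0.18, adjusted p = 0.459) and -0.39 (SE 0.18, adjusted p = 0.171), and the 25 mg/kg range overlapped the NaCl range.

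The disulfide isomerases form and reshuffle the disulfide bonds of secreted proteins. Of the 6 genes, 2 fell at 25 mg/kg, where 7.56% of all genes were called lower, and none passed at 50 mg/kg, where the edgeR test gave 2 with an unadjusted p under 0.05, limma-voom called 0 and DESeq2 called Pdia4. All 6 fold changes were negative at 25 mg/kg and 5 of 6 at 50 mg/kg, against 6174 and 6269 of 12557 genes tested. Over all genes at 50 mg/kg, 31.2% had an unadjusted p under 0.05 and DESeq2 called 2630. Pdia5 (ENSMUSG00000022844, chr16:35397312-35490873, minus strand) stood at 66.6, 69.1 and 66.8 CPM with NaCl, 44.2, 40.1 and 33.3 CPM at 25 mg/kg and 59, 38.5 and 45.8 CPM at 50 mg/kg. The NaCl libraries lay within a few CPM of each other and above all treated libraries. On the log2 scale the fold change was -0.79 (SE 0.18, adjusted p = 0.0228) at 25 mg/kg and -0.50 (SE 0.18, adjusted p = 0.0961) at 50 mg/kg. The 25 mg/kg call was lost without any of the NaCl libraries or without 25 mg/kg replicate 3 (adjusted p from 0.0604 to 0.0981), and omitting NaCl replicate 1 gave -0.79 (adjusted p = 0.0606).

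Pdia4, the gene of ERp72, stood at 211, 174 and 186 CPM with NaCl, 104, 112 and 129.8 CPM at 25 mg/kg and 159, 116 and 90.4 CPM at 50 mg/kg (ENSMUSG00000025823, chr6:47796141-47813430, minus strand). Treated libraries were below the NaCl range at both doses, 50 mg/kg replicate 1 by the least. Pdia4 had a log2 change of -0.72 (SE 0.21, adjusted p = 0.0475) at 25 mg/kg and -0.64 (SE 0.21, adjusted p = 0.0669) at 50 mg/kg. The 25 mg/kg call was lost without any single NaCl or 25 mg/kg library or without 50 mg/kg replicate 2 (adjusted p from 0.0588 to 0.149), and omitting NaCl replicate 1 gave -0.64 (adjusted p = 0.135). Without 50 mg/kg replicate 1 the 50 mg/kg value was -0.87 (adjusted p = 0.026).

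P4hb, the most abundant isomerase gene of the group, stood at 1605, 1534 and 1542 CPM with NaCl, 1550, 1555 and 1548 CPM at 25 mg/kg and 1896, 1744 and 1345 CPM at 50 mg/kg. The NaCl and 25 mg/kg libraries were all close to each other, and the 50 mg/kg libraries spread to both sides. Pdia3, which works with Calr and Canx on glycoproteins, gave log2 values of -0.23 (SE 0.22, adjusted p = 0.52) and -0.32 (SE 0.22, adjusted p = 0.348). The second of these turned to 0.03 when NaCl replicate 1 and 50 mg/kg replicate 3 were both left out. Pdia6 averaged 330.2 ± 33.3 CPM with NaCl, 257 ± 36.9 CPM at 25 mg/kg and 328 ± 64.2 CPM at 50 mg/kg. Its 25 mg/kg libraries all lay below the NaCl range, at a log2 change of -0.36 (SE 0.18, adjusted p = 0.229). Creld2, an ER stress-inducible protein with disulfide isomerase activity, gave a log2 value of -0.47 (SE 0.36, adjusted p = 0.428) at 25 mg/kg, where replicate 2 stood at 26.7 CPM and the other libraries at 75.9 and 78.1 CPM.

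Of the 5 genes that pick out misfolded glycoproteins for ERAD, 1 fell at 50 mg/kg, where 8.01% of all genes were called lower, and 0 were called by edgeR at 25 mg/kg, where 2 had an unadjusted p under 0.05, limma-voom called 0 and DESeq2 called 2 (Edem2 and Edem3). Over all genes at 25 mg/kg, 28.6% had an unadjusted p under 0.05 and DESeq2 called 2404. EDEM proteins trim mannose from misfolded glycoproteins, and OS9 and ERLEC1 read the trimmed glycan. Edem3 (ENSMUSG00000043019, chr1:151755371-151822051, plus strand) stood at 32.3, 26.3 and 31.6 CPM with NaCl, 16.7, 18.4 and 19.3 CPM at 25 mg/kg and 19.9, 10.1 and 12.1 CPM at 50 mg/kg. Treated libraries lay below the NaCl range at both doses, with 50 mg/kg replicates 2 and 3 lowest. Edem3 had a log2 change of -0.73 (SE 0.24, adjusted p = 0.073) at 25 mg/kg and -1.10 (SE 0.24, adjusted p = 0.0164) at 50 mg/kg, so Edem3 fell at the higher dose. That call was lost without NaCl replicate 1 (adjusted p = 0.051) and without NaCl replicate 3 (adjusted p = 0.0606), at log2 fold changes of -1.04 and -1.06.

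Edem2 stood at 48.9, 63 and 55.3 CPM with NaCl, 39.3, 41.4 and 41.4 CPM at 25 mg/kg and 71.6, 63.7 and 55.5 CPM at 50 mg/kg. The 25 mg/kg libraries lay together below all others, and the 50 mg/kg range overlapped the NaCl range. For Edem2 the log2 fold change was -0.45 (SE 0.16, adjusted p = 0.0836) at 25 mg/kg and 0.19 (SE 0.15, adjusted p = 0.436) at 50 mg/kg. Edem1, which is among the standard read-outs of XBP1, gave log2 values of -0.33 (SE 0.18, adjusted p = 0.273) and -0.33 (SE 0.18, adjusted p = 0.257). Os9 averaged 227 ± 34.8 CPM with NaCl, 221 ± 15.6 CPM at 25 mg/kg and 208 ± 22 CPM at 50 mg/kg, with fold changes smaller than their SE. Erlec1 averaged 12.8 ± 1.41 CPM with NaCl, 13.6 ± 4.6 CPM at 25 mg/kg and 10 ± 1.18 CPM at 50 mg/kg, with a log2 change of -0.36 (SE 0.24, adjusted p = 0.349) at the higher dose.

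Sel1l was the member with the lowest adjusted p at both doses. SEL1L holds the ubiquitin ligase HRD1 in the ER membrane and links it to the lectins on the lumenal side. Sel1l (ENSMUSG00000020964, chr12:91806043-91849157, minus strand) stood at 178, 139 and 151 CPM with NaCl, 66.2, 91.3 and 74.7 CPM at 25 mg/kg and 62.8, 64.5 and 52.9 CPM at 50 mg/kg. The groups were fully separated, with the NaCl libraries highest and the 50 mg/kg libraries lowest. The log2 fold change was -1.01 (SE 0.17, adjusted p = 0.00659) at 25 mg/kg and -1.38 (SE 0.17, adjusted p = 0.00242) at 50 mg/kg. Both calls held in all 21 alternatives, with values from -1.15 to -0.91 (adjusted p up to 0.0406) at 25 mg/kg and from -1.46 to -1.19 (adjusted p up to 0.0208) at 50 mg/kg. Without NaCl replicate 1, the library rich in acinar reads, they were -0.91 (adjusted p = 0.0258) and -1.27 (adjusted p = 0.00985).

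The ligase partner of SEL1L and the channel proteins gave smaller values. Syvn1, the gene of HRD1, stood at 156, 152 and 156 CPM with NaCl, 169, 136 and 164 CPM at 25 mg/kg and 151, 127 and 127 CPM at 50 mg/kg. The 50 mg/kg libraries were all just below the NaCl range, at a log2 change of -0.19 (SE 0.14, adjusted p = 0.391), and the 25 mg/kg libraries lay on both sides of it. Herpud1, whose product stabilises the HRD1 complex, stood at 394, 322 and 366 CPM with NaCl, 312, 630.3 and 328 CPM at 25 mg/kg and 290.3, 526 and 382 CPM at 50 mg/kg. Replicate 2 was the high library at each dose of retrorsine, and the fold changes were smaller than their SE. The derlins Derl1, Derl2 and Derl3, which form part of the channel for retrotranslocation, had fold changes smaller than their SE at both doses. Derl1 averaged 94.4 ± 8.83 CPM with NaCl, 92.7 ± 7.92 CPM at 25 mg/kg and 97.4 ± 8.7 CPM at 50 mg/kg, and Derl2 averaged 33.3 ± 5.31, 33.5 ± 8.12 and 33 ± 8.32 CPM. Derl3 averaged 0.661 ± 0.39, 0.558 ± 0.151 and 0.451 ± 0.233 CPM, a depth at which small differences were not detectable.

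The translocon, through which new proteins enter the ER, was read by the genes of 2 subunits. Sec61a1, the pore subunit, stood at 264, 297 and 274 CPM with NaCl, 199, 216 and 233 CPM at 25 mg/kg and 355, 260.2 and 263 CPM at 50 mg/kg, and the 25 mg/kg libraries lay below all others. Its log2 fold change at 25 mg/kg was -0.36 (SE 0.16, adjusted p = 0.162), and at 50 mg/kg it was smaller than its SE. The small subunit gene Sec61b stood at 47.3, 48.5 and 45 CPM with NaCl, 49.5, 36.4 and 41.8 CPM at 25 mg/kg and 66.3, 52.5 and 49.9 CPM at 50 mg/kg. The 50 mg/kg libraries were just above the NaCl range, with a log2 value of 0.26 (SE 0.17, adjusted p = 0.323), and the 25 mg/kg libraries overlapped it. Other annotated genes share 8.16% of the exon bases of Sec61a1.

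The last comparison set 50 mg/kg directly against 25 mg/kg. By the edgeR test 0 of the 33 genes differed past the threshold (background 0.00796%), and limma-voom also called 0, while DESeq2 called Edem2 as higher at 50 mg/kg (log2 fold change 0.66, adjusted p = 0.0272). Over all genes tested, DESeq2 called 71 and limma-voom 1. An unadjusted p under 0.05 was found for 3 genes, against 8.59% of all genes. These were Edem2 (log2 fold change 0.65, SE 0.16, adjusted p = 0.546), Sec61a1 (log2 fold change 0.44, SE 0.16, adjusted p = 0.546) and Sec61b (log2 fold change 0.40, SE 0.17, adjusted p = 0.559), each with a higher level at 50 mg/kg and no overlap. The groups also did not overlap for Xbp1, higher at 50 mg/kg (log2 fold change 0.43, SE 0.24, adjusted p = 0.662), and for Sel1l, lower at that dose (log2 fold change -0.37, SE 0.17, adjusted p = 0.596). No overlap was found for 5 of the 33, against a background of 11.4%, of which 5.38% were higher and 6% lower. The libraries of Eif2ak3 overlapped (log2 fold change -0.61, SE 0.32, adjusted p = 0.649). The other genes whose fold change exceeded its SE all overlapped between the doses. Higher at 50 mg/kg were Hspa5 (log2 fold change 0.23, SE 0.22, adjusted p = 0.821), Hyou1 (log2 fold change 0.21, SE 0.20, adjusted p = 0.82), Pdia5 (log2 fold change 0.29, SE 0.18, adjusted p = 0.718) and Pdia6 (log2 fold change 0.35, SE 0.18, adjusted p = 0.649), none past the threshold. Lower were Edem3 (log2 fold change -0.37, SE 0.24, adjusted p = 0.718), Erlec1 (log2 fold change -0.44, SE 0.24, adjusted p = 0.67) and Syvn1 (log2 fold change -0.21, SE 0.14, adjusted p = 0.744), likewise short of it. A difference that missed the threshold does not show that the doses acted alike.

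The wider ER machinery was read from 5 further lists with 119 genes, of which 117 were tested. At 25 mg/kg 3 of these 117 rose and 10 fell (11.1%), and at 50 mg/kg 6 rose and 10 fell (13.7%), against the same backgrounds of 13.5% and 15.1%. Without NaCl replicate 3 the counts were 3 at 25 mg/kg and 5 at 50 mg/kg, the lowest for both doses among the libraries left out in turn. Over all genes, the calls without that library were 751 in place of 1690 and 700 in place of 1896. Between the doses edgeR called 0 of 117, limma-voom 0 and DESeq2 2 (Rnf145 and Srprb), and 14 had an unadjusted p under 0.05. Over all genes tested, edgeR called 0.00796%, limma-voom 1 gene and DESeq2 71, and 8.59% had an unadjusted p under 0.05. The median log2 fold change over the 117 was -0.05 at 25 mg/kg and -0.0035 at 50 mg/kg.

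Within the stress signalling list, 18 of 20 genes were tested, and 4 transcripts rose at 50 mg/kg. Among them Trib3, Ppp1r15a and Ddit3 are known from the integrated stress response, in which eIF2α phosphorylation favours translation of ATF4. Atf4 itself, of the same list, gave log2 values of 0.12 (SE 0.22, adjusted p = 0.766) and 0.45 (SE 0.22, adjusted p = 0.202). Ppp1r15b likewise did not pass at either dose (adjusted p = 0.954 and adjusted p = 0.592). Trib3, a pseudokinase gene induced by ATF4 and CHOP, rose from 4.18 ± 0.592 CPM to 40.6 ± 6.22 CPM at 25 mg/kg (log2 fold change 3.28, SE 0.29, adjusted p = 0.000566) and to 38.9 ± 14.6 CPM at 50 mg/kg (log2 fold change 3.22, SE 0.29, adjusted p = 0.00116). Ppp1r15a encodes GADD34, which guides the phosphatase that reverses eIF2α phosphorylation, and rose from 14.2 ± 5.75 to 41.8 ± 9.58 and 83.5 ± 25.9 CPM with log2 fold changes of 1.56 (SE 0.35, adjusted p = 0.0195) and 2.56 (SE 0.36, adjusted p = 0.00333). Ddit3, the gene of CHOP, stood at 6.72, 5.25 and 5.17 CPM with NaCl, 12.6, 5.85 and 15.3 CPM at 25 mg/kg and 14.3, 37.6 and 23.9 CPM at 50 mg/kg. The 25 mg/kg libraries spread from the NaCl range upward and the 50 mg/kg libraries all lay above it, with log2 values of 0.98 (SE 0.40, adjusted p = 0.142) at the lower dose and 2.15 (SE 0.41, adjusted p = 0.0106) at the higher. Creb3l2, an ATF6-related membrane-bound factor, fell from 89.7 ± 12.6 to 25.6 ± 5.93 and 28.8 ± 14 CPM (log2 fold change -1.81, SE 0.36, adjusted p = 0.011, and log2 fold change -1.64, SE 0.35, adjusted p = 0.0155). Wfs1, an ER membrane protein gene, fell from 26 ± 3.99 to 14 ± 2.96 CPM at 25 mg/kg (log2 fold change -0.89, SE 0.19, adjusted p = 0.0164). The list counted 2 higher and 2 lower at 25 mg/kg and 4 higher and 1 lower at 50 mg/kg (22.2% and 27.8%, against 13.5% and 15.1% over all genes), the last of the 4 being Creb3 (log2 fold change 0.60, SE 0.16, adjusted p = 0.0336), named after its value was seen to complete the count.

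Genes of N-glycosylation and glycan trimming fell in 3 of 14 cases at 25 mg/kg and 2 of 14 at 50 mg/kg, with none rising. The shares called, 21.4% and 14.3%, stood beside 13.5% and 15.1% over all genes tested, so these counts are not a result about the list. Uggt1, the folding sensor that sends misfolded glycoproteins back to calnexin and calreticulin, fell from 131 ± 6.42 CPM to 66.2 ± 11.1 CPM at 25 mg/kg (log2 fold change -0.99, SE 0.17, adjusted p = 0.00636) and 80.3 ± 9.53 CPM at 50 mg/kg (log2 fold change -0.71, SE 0.16, adjusted p = 0.0204). Stt3b, a catalytic subunit gene of oligosaccharyltransferase, fell at both doses (log2 fold change -0.57, SE 0.13, adjusted p = 0.0202, and log2 fold change -0.61, SE 0.13, adjusted p = 0.0146), and Rpn1, a further subunit, fell at 25 mg/kg (log2 fold change -0.55, SE 0.15, adjusted p = 0.0438). Of 28 further folding genes, 1 fell at 25 mg/kg (3.57%) and 2 at 50 mg/kg (7.14%). These were Txndc11, a thioredoxin-domain gene (log2 fold change -0.80, SE 0.17, adjusted p = 0.0135, and log2 fold change -0.999, SE 0.17, adjusted p = 0.00588), and at 50 mg/kg Dnajc1, a J-domain gene (log2 fold change -0.95, SE 0.18, adjusted p = 0.00908).

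Of 36 further ERAD genes, 1 rose and 2 fell at 25 mg/kg (8.33%), and 2 rose and 5 fell at 50 mg/kg (19.4%), against 13.5% and 15.1% over all genes. Marchf6, the gene of an ER membrane ubiquitin ligase, fell at both doses (log2 fold change -0.85, SE 0.21, adjusted p = 0.0272, and log2 fold change -0.78, SE 0.21, adjusted p = 0.0345). Trim13, another ER-anchored ligase gene, rose from 0.873 ± 0.308 CPM to 2.38 ± 0.827 CPM (log2 fold change 1.46, SE 0.40, adjusted p = 0.0398) and 3.11 ± 0.64 CPM (log2 fold change 1.84, SE 0.40, adjusted p = 0.016). Dnajb14, a J-domain gene of the ER membrane, fell at 25 mg/kg (log2 fold change -0.75, SE 0.19, adjusted p = 0.0281). Erlin2, which helps degrade the inositol trisphosphate receptor (log2 fold change -0.65, SE 0.17, adjusted p = 0.0319), and Ubac2 (log2 fold change -0.61, SE 0.16, adjusted p = 0.0344) fell at 50 mg/kg. To complete the counts at that dose, and so chosen after their values were seen, Yod1 gave a log2 value of 1.77 (SE 0.49, adjusted p = 0.0402), Dnajb14 -0.69 (SE 0.19, adjusted p = 0.0367) and Rhbdd1 -0.56 (SE 0.16, adjusted p = 0.0466). Of 21 genes of translocation and signal peptidase, 2 fell at 25 mg/kg (9.52%), Srpr, the signal recognition particle receptor gene (log2 fold change -0.62, SE 0.15, adjusted p = 0.0248), and Tram1 (log2 fold change -0.68, SE 0.19, adjusted p = 0.0403). At 50 mg/kg edgeR called 0 of these 21, with 4 at an unadjusted p under 0.05, DESeq2 called 2 (Sec63 and Srp9) and limma-voom called 0. Over all genes at that dose, 31.2% had an unadjusted p under 0.05 and DESeq2 called 2630.

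Set against the promoter sequences printed above, the genes with an ERSE or ERSE-II did not share a direction past the threshold. Of the 10, Dnajc3 fell at both doses and the other 9 did not pass. Their median log2 fold change was -0.22 at 25 mg/kg and -0.25 at 50 mg/kg. The 17 genes whose promoter held neither element had medians of -0.33 and -0.12, and 1 rose and 3 fell at 25 mg/kg while 2 fell at 50 mg/kg. Outside the group, 13 other tested genes held such an element, with medians of -0.09 and -0.12, and 1 of them fell at 25 mg/kg (Acacb) and 1 rose at 50 mg/kg (Zfp57). Over all genes tested, 13.5% were called at 25 mg/kg and 15.1% at 50 mg/kg, with medians of 0.01 and 0.000508. The counts called in these small sets are not a result about the element.

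Across all genes tested, fold changes were related to the length of the gene on the chromosome. The Spearman correlation of log2 fold change with span was -0.437 at 25 mg/kg and -0.515 at 50 mg/kg over 12557 genes, and -0.317 and -0.327 over the 33 ER genes. These are descriptions across genes, which share libraries. The ER genes had a median span of 18.23 kb, against 23.82 kb over all genes tested. Between 40 and 80 kb, where Dnajc3, Edem3, Eif2ak3, Manf and Sel1l lie, the median of all genes was -0.18 at 25 mg/kg and -0.26 at 50 mg/kg, and that of the 5 ER genes was -0.57 and -0.60. Atf6, at 163.1 kb the longest of the group, had log2 fold changes of -0.88 and -0.93, and genes of 160 kb or more had medians of -0.96 and -0.95. In genes under 5 kb the medians of all genes were 0.28 and 0.35. The 3 ER genes of that bin went both ways. Dnajb9 gave 0.59 and 0.75, Sdf2l1 -0.48 and -0.33, and Derl3, within its SE at both doses, -0.23 and -0.52. Their medians of -0.23 and -0.33 were thus the values of single genes, Derl3 and Sdf2l1. The part of gene span in these fold changes was not tested.

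**Figure D5:**
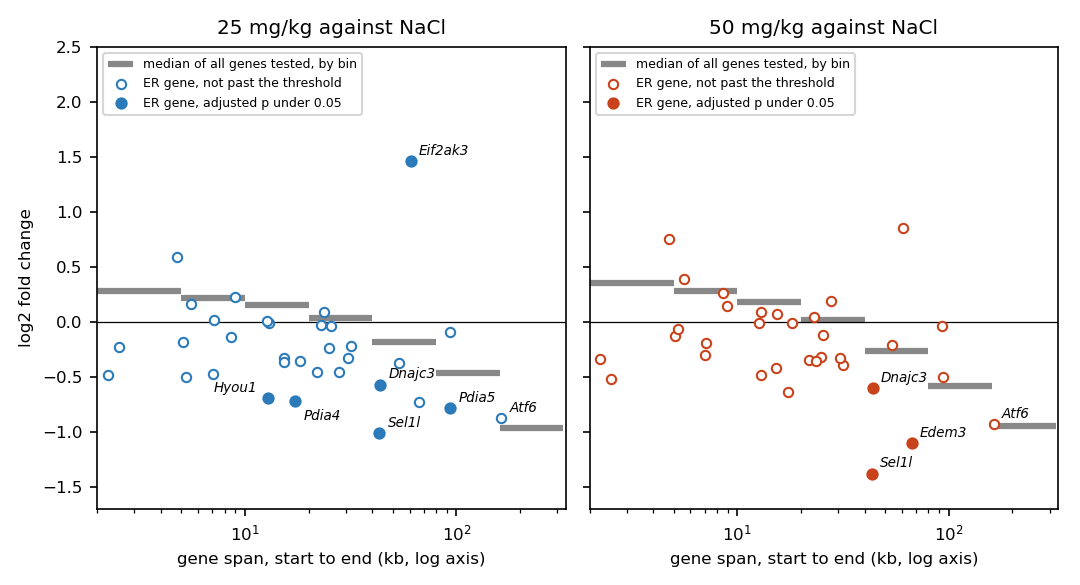
Log2 fold change against gene span in kb (log axis) at 25 mg/kg (left) and 50 mg/kg (right) against NaCl. Grey bars are medians of all genes tested in bins of span (1343 genes under 5 kb, 774 of 160 kb or more), open points are ER genes short of the threshold and filled points are ER genes past it. Sel1l lies below the bar of its bin in both panels, and Atf6 lies near its bar.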

How the data were processed

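Liver RNA from wild-type mice was sequenced in 9 libraries, 3 per group. The authors deposited read counts per gene, FPKM values and gene lengths. Reads were aligned with HISAT2 to GRCm38, per the submitters' processing notes, which name no counting tool, annotation release or strand setting (not given in the sources used here). The deposited FPKM values lay within 1% of count over length and library total for 133506 of 133506 values and were not tested. The counts as deposited were tested with edgeR 4.0.16 in R 4.3.3: genes were filtered with filterByExpr, scaled by TMM and fitted over 9 libraries with a mean for each group (6 residual degrees of freedom), and quasi-likelihood F tests were adjusted by Benjamini-Hochberg over 12557 genes, with a threshold of 0.05. CPM values use the TMM-scaled library sizes, log2 CPM a prior count of 2, and the SE is the fold change divided by the root of F. CPM per kb divides by the deposited gene length. Errors beside means are SD with n = 3. The precision of low genes is limited by total counts of 15241261 to 18691736 per library.

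Alternatives were other scalings, DESeq2 1.42.0, limma-voom (limma 3.58.1), other filters, a minimum log2 fold change of 0.5, a replicate block, only the groups compared, and libraries left out. No libraries of a group agreed within sampling noise. The members and lists were chosen with earlier results of these data known. Every gene of the group is named, with a fold change where it exceeded its SE, and values per library for genes past the threshold, the sensors with Xbp1, and Hspa5. From each wider list at most 4 genes per comparison are named, those with the lowest adjusted p past the threshold, apart from those that complete a count and, where a tool's calls are given, the genes it called. Atf4 and Ppp1r15b, not past the threshold, are named as well, after their values were seen. Gene spans were taken from the deposited starts and ends, which matched those of GENCODE M21 for 33 of the 33 ER genes. Exon overlaps were read from GENCODE M21. Protein sequences were not used here.

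Other marker lists were summed per library. Between NaCl, 25 mg/kg and 50 mg/kg, neutrophil and monocyte markers spanned 13.04 to 32.81, 8.775 to 17.64 and 13.91 to 186.9 CPM. Lymphocyte markers spanned 1.105 to 1.748, 1.081 to 4.72 and 6.065 to 33.46 CPM. Kupffer cell markers spanned 198.9 to 282.2, 259 to 450.1 and 173.2 to 472.3 CPM, and endothelial markers 276.1 to 290.1, 254.6 to 292.8 and 188.7 to 280.2 CPM. Stellate cell markers spanned 201 to 529.2, 181.9 to 319.6 and 223.4 to 268.4 CPM, and cholangiocyte markers 35.9 to 131.2, 31.41 to 43.25 and 38.92 to 60.92 CPM.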

Additional observations from a re-analysis of the deposited data

How the results depend on the processing

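Of 1113 recomputed fold changes of ER genes that exceeded their SE, 1023 kept their direction and side of the threshold, 67 lost a call, 22 gained one and 1 turned: Pdia3 at 50 mg/kg, at 0.033 (SE 0.20, adjusted p = 0.938) without the pair of NaCl replicate 1 and 50 mg/kg replicate 3. Of 962 fold changes smaller than their SE, 102 turned direction. At 25 mg/kg the 6 calls among the 33 ER genes became 3 with no filter on low counts, 3 under the replicate block, 1 against a minimum log2 fold change of 0.5, and 3 and 2 without the pairs of NaCl replicate 1 with 50 mg/kg replicate 2 and 3. They ranged from 1 to 7 with single libraries left out. DESeq2 kept these calls and added Atf6, Edem2 and Edem3, and the fit of only the groups compared kept them and added Atf6 and Edem3. Upper quartile scaling and scaling by library totals each lost Hyou1 and Pdia4. At 50 mg/kg the 3 calls became 6 with DESeq2, 5 with at least 10 CPM in 3 libraries, 1 against the minimum fold and 1 without NaCl replicate 1 and 50 mg/kg replicate 3, and ranged from 1 to 4 with single libraries left out. Between the doses DESeq2 called 1 of the 33, in place of 0, and 2 of the wider lists, in place of 0, and leaving out single libraries left 0 in both. Calls over all genes moved as well. At 25 mg/kg the 1690 became 1484 with no filter, 1108 under the block and 636 against the minimum fold. Single libraries left out gave 626 to 1850. At 50 mg/kg the 1896 became 2630 with DESeq2, 1607 with at least 10 CPM in 3 libraries and 654 against the minimum fold. Single libraries left out gave 700 to 1921. Between the doses DESeq2 called 71 in place of 1. Whether the ER genes moved more was not tested.

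For the 117 genes of the wider lists, the 13 calls at 25 mg/kg became 23 with DESeq2, 8 under the replicate block, 3 against the minimum fold, 5 and 7 without the pairs, and 3 to 15 with single libraries left out. The 16 calls at 50 mg/kg became 9 under the block, 6 against the minimum fold, 3 and 8 without the pairs, and 5 to 17 with single libraries left out. Over all genes DESeq2 called 2404 at 25 mg/kg, and the block left 1229 at 50 mg/kg. Without the pairs, all genes gave 975 and 1200 calls at 25 mg/kg and 653 and 1146 at 50 mg/kg. Fewer samples in a fit leave fewer degrees of freedom, and the causes of the other moves were not tested. Same-numbered libraries correlated at -0.23 to 0.136 in their deviations from the group means, and not every library correlated best with its own number. With 3 libraries per group, these correlations cannot decide whether the numbers pair the samples. The main fit used no pairing. With the replicate block, 3 ER genes were called at 25 mg/kg and 2 at 50 mg/kg. Single calls were followed for the 33 ER genes, of which only Sel1l and Dnajc3 were called at both doses in the main fit. The calls of Sel1l were kept at both doses under all 21 alternatives. Every other call of the main fit, those of Dnajc3 included, was lost under some alternative.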

Other observations

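Within a group, many of the ER genes followed one order of libraries that the treatment does not name. The order was not counted over all genes tested, so it is not a result about the ER genes. NaCl replicate 1 was the highest NaCl library for 25 of the 33 genes, and NaCl replicate 2 the lowest for 23. At 25 mg/kg replicate 1 was the lowest library for 18 genes. Replicate 2 of that dose was lowest for 11, among them Hspa5, Hyou1, Sdf2l1 and Creld2, and highest for 12, among them Herpud1 and Sel1l. At 50 mg/kg replicate 1 was the highest library for 23 genes and replicate 3 the lowest for 22. The median SD of log2 CPM within a group was 0.182, 0.233 and 0.296 over the 33 genes with NaCl, 25 mg/kg and 50 mg/kg, against 0.251, 0.267 and 0.322 over all genes tested.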
